A study of Mus musculus with 10 samples.

Results

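The transcription factors that hold pluripotency together were examined as sites of OTX2 binding: 10 genes, of 21887 protein-coding genes with a position on the nuclear chromosomes. They form 2 classes. Pou5f1, Nanog and Sall4 are the core factors, and Esrrb, Klf4, Klf2, Tbx3, Tfcp2l1, Prdm14 and Zfp42 are the naive factors. A peak belonged to a gene when its centre lay inside the gene or within 50 kb of either end, or when the authors' deposited table named that gene as nearest. No peak was added by the last criterion alone, since 0 nearest-gene peaks lay outside these windows. This gave 17 of the 6319 peaks of epiblast stem cells (EpiSCs) and 60 of the 42711 peaks of definitive endoderm (DE).

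The peaks come from CUT&RUN, in which an antibody directs a nuclease to its target so that the DNA beside it is released and sequenced. The antibody recognised the HA epitope on OTX2 in a single tagged mouse line, 7H OTX2-dTAG-EGFP, of BL6/129 hybrid background, so every tagged sample shares this altered Otx2 allele. The EpiSC group (2 HA samples) grew in N2B27 medium, where FGF2 was present at 12.5 ng/ml, Activin A at 20 ng/ml and NVP at 175 nM. The DE group (2 HA samples) was differentiated in CDM medium, first for 16 h (CHIR at 3 µM, Activin A at 40 ng/ml) and next for 24 h (LDN at 100 nM, Activin A at 100 ng/ml), and its live cells were sorted. Controls with a peak list were IgG on tagged EpiSCs (3 samples) and anti-HA on DE of the untagged parental line 5.8 (1 sample). IgG samples of tagged DE (1) and parental DE (1) were not analysed here. Each sample held 500000 cells. The authors deposited 1 list per state over both HA replicates, so no value has a replicate spread, no test between the states was possible, and read depth is unknown. The DE list was 6.76 times as long as the EpiSC list, so counts from the 2 lists are not on the same scale.

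OCT4 (the product of Pou5f1), NANOG and SALL4 belong to the pluripotency network in both of its forms, the naive state of the early epiblast and the primed state of the later epiblast, which EpiSCs represent. The naive factors are high in naive cells and are silenced as cells become primed, while the core factors stay on until lineage commitment. OTX2 is a homeodomain protein known to act in the passage from naive to primed pluripotency, where it is found at enhancers together with OCT4. No expression value was used here, so what the cells transcribed cannot be read from these data.

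In the EpiSC list, the core genes held 15 peaks and the naive genes 2, although the naive windows cover 966 kb and the core windows 331 kb. All 3 core genes had an EpiSC peak, and 2 of the 7 naive genes did, against 40.8% of all protein-coding genes. In the DE list, all 3 core genes and 6 of the 7 naive genes had a peak, against 82.8% of all protein-coding genes. The DE totals were 23 peaks at core and 37 at naive genes. The core class thus had more EpiSC peaks than the naive class and fewer DE peaks. Since the lists are not on the same scale, the sizes of these differences were not compared.

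Each gene's counts follow, with EpiSC first. Pou5f1 had 4 EpiSC and 6 DE peaks, Nanog had 5 and 8, and Sall4 had 6 and 9. Among the naive genes, Klf2 had 1 EpiSC and 3 DE peaks and Prdm14 had 1 and 7. Esrrb had no EpiSC peak and 15 DE peaks, Tbx3 none and 7, Klf4 none and 4, and Tfcp2l1 none and 1. Zfp42 had no peak in either list. A DE peak without any EpiSC peak was thus the pattern at 4 naive genes and at 0 core genes, against 42.3% of all protein-coding genes. Windows with no peak at all, as at Zfp42, made up 16.9% of all genes. No member had more EpiSC than DE peaks (1.05% of genes did), and 9 members had more DE than EpiSC peaks (79.2%).

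**Figure D1:**
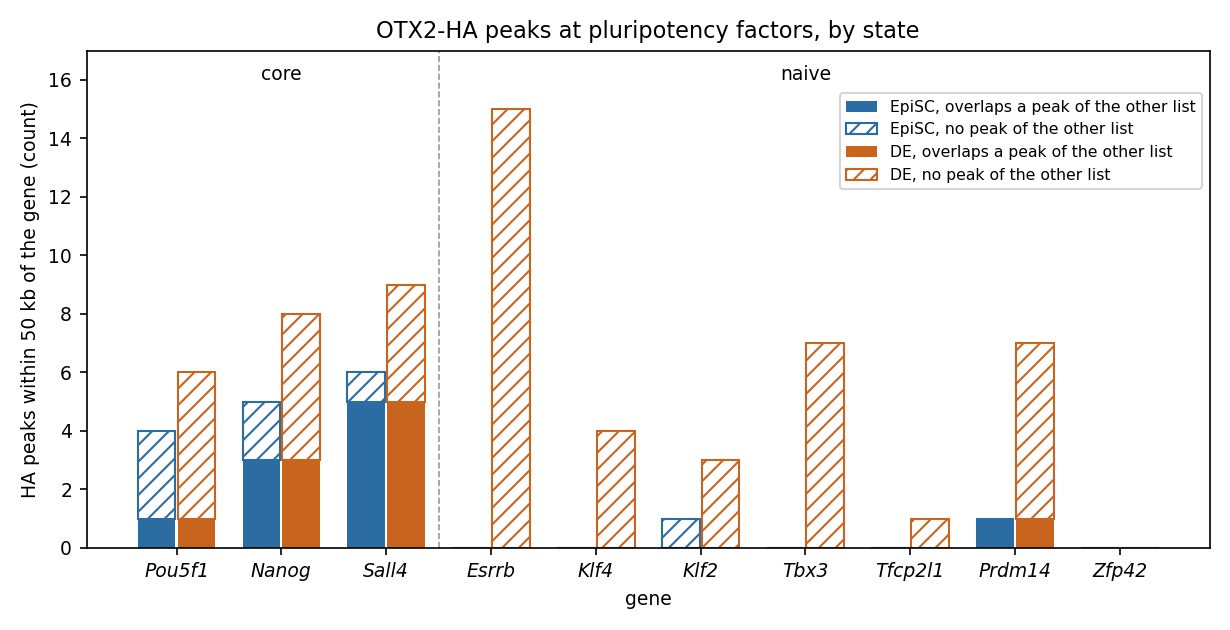
Number of OTX2-HA peaks (y axis, count) within 50 kb of each of the 10 genes (x axis), with EpiSC peaks in blue and DE peaks in orange. Filled parts overlap a peak of the other list by at least 1 bp and hatched parts do not. EpiSC bars reach 4 to 6 at the core genes and at most 1 at the naive genes, while DE bars range from 0 to 15.

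Per 100 kb of window, the core genes had 4.53 EpiSC peaks and 6.95 DE peaks, and the naive genes 0.207 and 3.83. The mean over the windows of all protein-coding genes was 0.571 EpiSC and 2.58 DE peaks per 100 kb. In DE both classes, each pooled over its genes, were above that mean, whereas in EpiSCs the core class was above it and the naive class below it. The median over genes was 0 EpiSC and 2.23 DE peaks per 100 kb, so a naive gene without an EpiSC peak stood at the EpiSC median. Within the naive class, Tfcp2l1 (0.636) and Zfp42 (0) were below both the mean and the median in DE. Of all peaks at core genes, 15 of 38 came from the EpiSC list (39.5%, exact Clopper-Pearson 95% interval 24 to 56.6%), and at naive genes 2 of 39 did (5.13%, 0.627 to 17.3%). EpiSC peaks made up 12.9% of the lists as wholes, a value inside the interval of the naive genes. Over the windows of all protein-coding genes they made up 18.2%, a value above the naive interval and below the one of the core genes. For that value a peak counted once for every gene window holding it. It is therefore not a share of distinct peaks, as the class shares and the 12.9% are. Adjacent peaks are not independent of each other, and the intervals take in counting error alone. Since genes within a class are not replicates, the difference between the classes is a description. Leaving out any 1 gene, the EpiSC share stayed between 39.1 and 40% for the core genes and between 2.86 and 8.33% for the naive genes.

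The members were placed among all protein-coding genes within each list. Since the lists differ in length, a place in one list cannot be set against a place in the other. At least 6 EpiSC peaks, the count of Sall4, were found at 1.88% of genes, at least 5, the count of Nanog, at 3.27%, and at least 4, the count of Pou5f1, at 5.75%. Within the DE list, the counts of Sall4, Nanog and Pou5f1 were reached by 9.33%, 13.4% and 25.2% of genes. By count of DE peaks Esrrb lay highest of the 10 genes, with its 15 peaks reached by 1.13% of genes. Esrrb is long, at 160512 bp, and per length of window its DE density (5.76 peaks per 100 kb) was reached by 11.8% of genes. By that density Sall4 (5.35% of genes), Nanog (5.62%), Prdm14 (9.83%) and Tbx3 (9.9%) all ranked above Esrrb, and Pou5f1 (12%) just below it. Of the 247 genes with at least 15 DE peaks, 51 (20.6%) had no EpiSC peak, as Esrrb did.

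**Figure D2:**
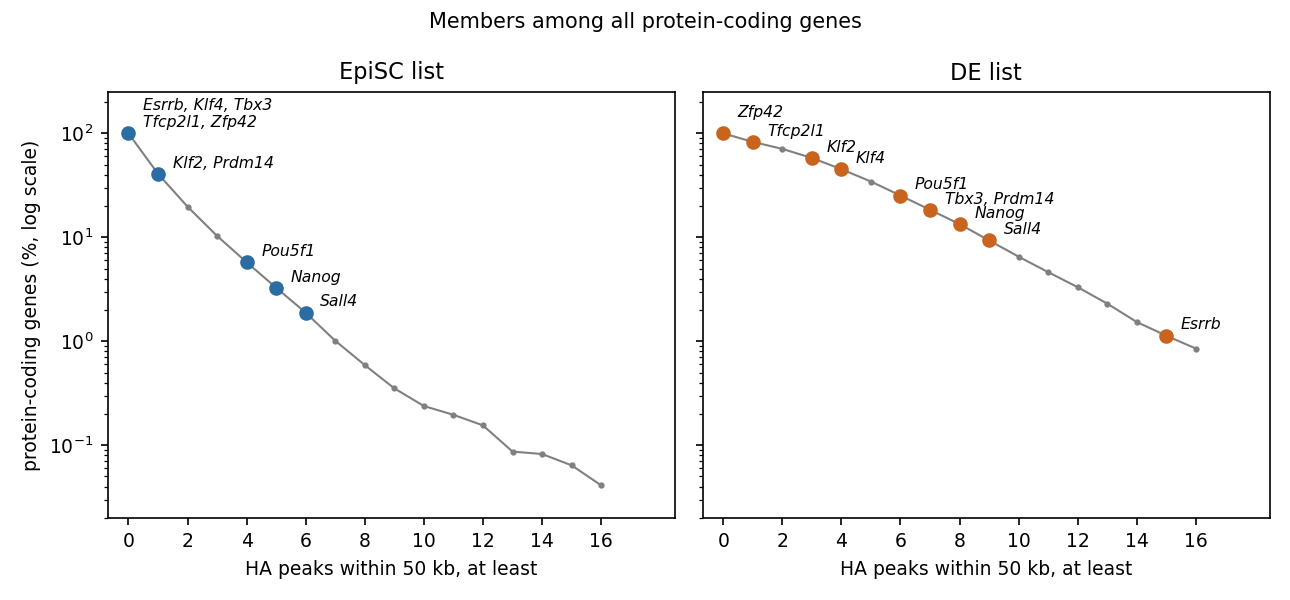
Share of protein-coding genes (y axis, percent, log scale) that had at least the number of HA peaks on the x axis within 50 kb, in the EpiSC list (left) and the DE list (right). Coloured points mark the 10 members. In the EpiSC list Sall4 lies farthest along the curve, at 1.88%, and in the DE list Esrrb does, at 1.13%. The curves depend on list length, so heights are not comparable between the panels.

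Because peaks in or next to a promoter can be read at the level of sequence, upstream sequences were taken from RefSeq (GRCm38.p6, the assembly behind mm10). Entries were matched for 7 of the 10 members, and Sall4, Tbx3 and Prdm14 were not matched. Only the 250 bases before each transcript start were used. Both strands were searched for TAATCC, the letters preferred by OTX2-type homeodomains, which read GGATTA on the opposite strand. The octamer ATGCAAAT, which OCT4 prefers and which reads ATTTGCAT on the opposite strand, was searched likewise. In the members' windows no match of one motif overlapped a match of the other. TAATCC occurred in 6.25% of 32817 such upstream windows and ATGCAAAT in 1.6%. Windows that an EpiSC peak overlapped held TAATCC in 8.28% of cases, those with a DE peak in 7.25%, and those with no peak in 6.04%. The corresponding shares for ATGCAAAT were 2.91%, 1.94% and 1.52%.

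Of the upstream windows of members, 1 overlapped an EpiSC peak, that of Nanog (6.18% of all windows), and 1 overlapped a DE peak, that of Klf2 (17.9% of all windows). They are shown with the DE peak upstream of the non-coding gene Tbx3os2 beside Tbx3, and with Zfp42 as the member without any peak. The Nanog sequence is chr6:122707239-122707488, plus strand, whose first 31 bases lie in the EpiSC peak. The Klf2 sequence is the whole DE peak at chr8:72318845-72319002, plus strand. The Tbx3os2 sequence is the whole DE peak at chr5:119691286-119691368, minus strand. The Zfp42 sequence is chr8:43307010-43307259, minus strand. Capitals mark GGATTA in Nanog and ATTTGCAT in Zfp42.
Nanog: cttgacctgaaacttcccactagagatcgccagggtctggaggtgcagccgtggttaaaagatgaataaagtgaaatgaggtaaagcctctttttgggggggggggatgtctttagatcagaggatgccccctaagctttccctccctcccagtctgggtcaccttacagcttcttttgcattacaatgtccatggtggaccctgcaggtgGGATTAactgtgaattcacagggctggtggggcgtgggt
Klf2: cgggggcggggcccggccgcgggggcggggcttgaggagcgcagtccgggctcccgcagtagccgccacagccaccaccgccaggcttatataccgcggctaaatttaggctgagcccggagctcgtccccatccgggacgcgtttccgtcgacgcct
Tbx3os2: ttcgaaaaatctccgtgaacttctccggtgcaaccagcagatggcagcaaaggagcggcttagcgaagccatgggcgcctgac
Zfp42: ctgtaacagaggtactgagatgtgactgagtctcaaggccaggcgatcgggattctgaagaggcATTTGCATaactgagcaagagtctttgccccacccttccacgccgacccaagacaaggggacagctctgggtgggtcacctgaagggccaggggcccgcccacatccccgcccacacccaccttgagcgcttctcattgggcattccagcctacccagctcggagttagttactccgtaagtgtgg
GGATTA stood 39 to 34 bases upstream of the Nanog start, outside the peak, which covered bases 250 to 220 upstream within this window. The second listed Pou5f1 start also had GGATTA, 31 to 26 bases upstream, in a window without a peak. The Klf2 peak, 72.2% G and C, held neither motif, and the median G and C content of all upstream windows was 52.4%. The Tbx3os2 peak, 56.6% G and C, held neither motif as well. ATTTGCAT stood 186 to 179 bases upstream of the Zfp42 start, and the closest EpiSC peak to that gene was 1664 kb away. A match is a run of letters and not a shown site, and a window without one says nothing about binding there.

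At Pou5f1 (chromosome 17, 35506032 to 35510777), which encodes the POU-domain factor OCT4, the widest peaks of the 2 states lay on either side of the transcript start. The EpiSC peak at 35504773 to 35505268 was 496 bp wide, centred 1012 bp upstream of the first listed start, and 1.41% of EpiSC peaks were at least as wide. No DE peak overlapped it. The closest DE peak, at 35506953 to 35507533, was centred 1211 bp downstream of the start inside the gene, 1685 bp from the edge of the EpiSC peak. It was 581 bp wide, a width reached by 0.517% of DE peaks, and no EpiSC peak overlapped it. Pou5f1 is known to be driven by a proximal enhancer in primed cells and by a distal enhancer farther upstream in naive cells. Neither element is annotated in the files, and no peak was assigned to one.

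Close to Pou5f1, DE had further peaks of 119 bp centred 3398 bp upstream and of 102 bp centred 3438 bp downstream of the first start, neither with an EpiSC counterpart. DE peaks of 118 bp at Tcf19 and of 136 bp near H2-Q10 had none either. The 1 shared site of the window lay 11.1 kb downstream, where an EpiSC peak of 135 bp (35517048 to 35517182) fell entirely within a DE peak of 375 bp (35516821 to 35517195). That site lies at the starts of Tcf19 and Cchcr1, and the authors' deposited table names Cchcr1 as nearest. The remaining EpiSC peaks, 164 and 274 bp wide, were assigned by the authors' deposited table to Psors1c2 and Cdsn. In all, 1 of 4 EpiSC peaks at Pou5f1 overlapped a DE peak, against 78.8% of the whole EpiSC list.

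Nanog (chromosome 6, 122707489 to 122714633) encodes a homeodomain factor. Its promoter-proximal peak was found in EpiSCs only among the 2 lists: 122707159 to 122707269, 111 bp wide and centred 275 bp upstream of the start, with the closest DE peak 4465 bp away. An EpiSC peak at 122702599 to 122702678, 4.85 kb upstream, matched a DE peak at 122702605 to 122702694, with 74 bp in common and Gm10224 as nearest in the authors' deposited table. Nanog has a known enhancer several kilobases upstream, and no peak was assigned to it. The site past the 3′ end, at 122716061 to 122716163 in EpiSCs and 122716038 to 122716122 in DE, shared 62 bp. No peak centre of either list lay inside the gene.

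At Nanog 3 of 5 EpiSC peaks overlapped a DE peak, against the same 78.8%, the third being at Slc2a3, a glucose transporter gene in the same window, with 113 bp in common. Nanog's EpiSC peaks were narrow, from 79 to 113 bp with a median of 103 bp, against a median of 141 bp for the whole list. DE added a peak of 455 bp far upstream (122663636 to 122664090, 43.6 kb before the start), a width reached by 1.79% of DE peaks, which the authors' deposited table gives to Gm10420. It also added a peak of 131 bp located 5532 bp past the gene's end, for which the authors' deposited table names Nanog. The remaining 3 DE peaks, 144, 124 and 218 bp wide, were given to Slc2a3 there.

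Sall4 (chromosome 2, 168748332 to 168767201), a zinc finger factor, had the largest number of EpiSC peaks of the 10 genes. Of its 6 EpiSC peaks, 5 overlapped a DE peak, a share near that of the whole EpiSC list (78.8%). The sites lay inside the gene at 168762088 to 168762238 and 168765372 to 168765542, at the upper end of the gene at 168767163 to 168767387, and beyond it at 168777083 to 168777403 and 168791164 to 168791354. At the gene end the peaks were almost the same in both lists, 225 bp wide in EpiSC and 237 bp in DE, with centres 4 bp apart, and their centres also lie in Gm14261. The unmatched EpiSC peak, 83 bp wide, lay below the gene within Atp9a. A DE peak of 154 bp, 40.6 kb above the gene, had no EpiSC counterpart. All 9 DE peaks and 5 of the 6 EpiSC peaks named Sall4 as nearest in the authors' deposited table.

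Inside Sall4 the shared site was extended in DE. Where EpiSCs had 1 peak of 151 bp, DE had 4 separate peaks between 168761997 and 168763128, of 251, 106, 279 and 168 bp, with gaps of 165, 100 and 66 bp between them. Of these 4, 1 overlapped the EpiSC peak. At the site 24.1 kb above the gene the DE peak was wider (453 bp against 191 bp), and at the site 10 kb above it the DE peak was narrower (120 bp against 321 bp). Width therefore did not change in 1 direction even among the shared sites of a single gene.

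**Figure D3:**
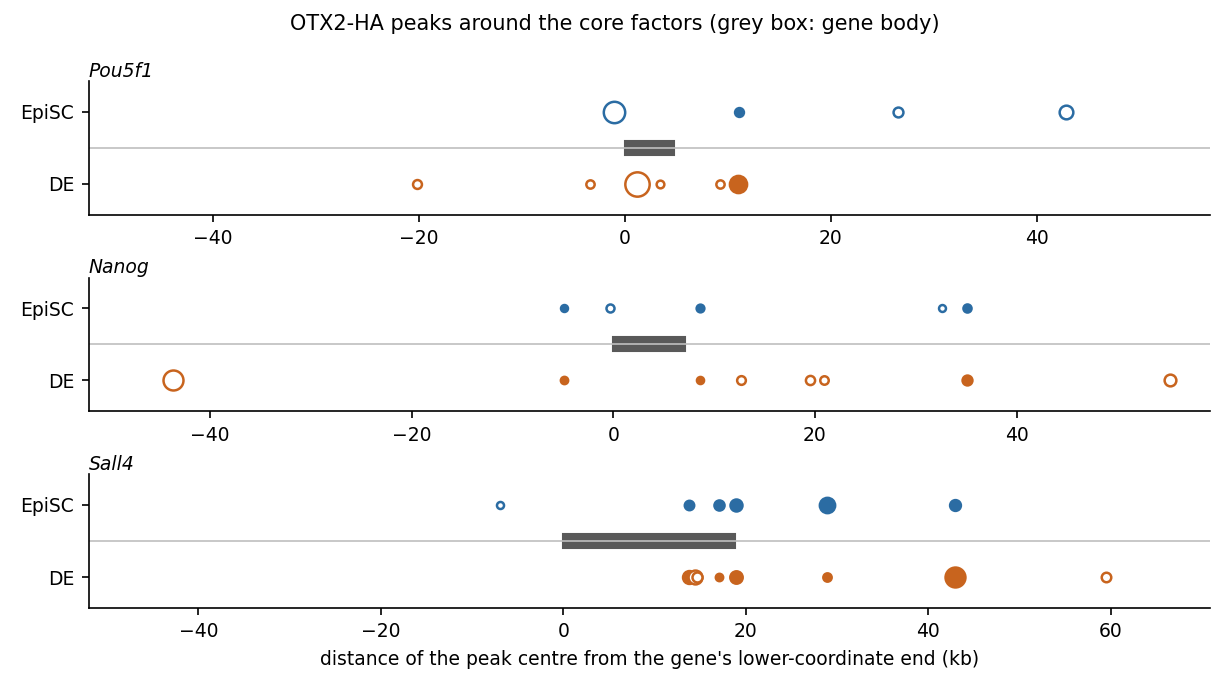
Peak centres around Pou5f1, Nanog and Sall4 by distance from the lower-coordinate end of the gene (x axis, kb), EpiSC above and DE below the line. The grey box is the gene body, the circle size follows peak width, and filled circles overlap a peak of the other list. Filled circles line up between the states at Sall4 (5 sites) and Nanog (3 sites), while at Pou5f1 the widest circles of the 2 lists, 496 and 581 bp, are open and lie on either side of the gene's start.

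Esrrb (chromosome 12, 86361117 to 86521628) encodes an orphan nuclear receptor that activates naive genes. None of its 15 DE peaks overlapped an EpiSC peak (11.7% of all DE peaks did), which follows from the absence of any EpiSC peak in the window and is not a separate result. The closest EpiSC peak was centred 80.1 kb from the gene, a distance near the median of all protein-coding genes (84.8 kb) and reached or passed by 51% of them. Of the DE peaks, 10 lay inside the gene, and 14 named Esrrb as nearest in the authors' deposited table. Their widths ran from 71 to 278 bp, with a median of 127 bp against 138 bp for the whole DE list. A run of 3 lay within the gene 34.4, 37.8 and 43 kb after the first transcript start, at 274, 214 and 240 bp wide. No DE peak overlapped the upstream window of either listed start.

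Klf4 (chromosome 4, 55527137 to 55532475) and Klf2 (chromosome 8, 72319062 to 72321654) encode related zinc finger factors of the naive network. The 4 DE peaks at Klf4 were 73 to 108 bp wide, all under the median of the DE list (138 bp). They included 1 inside the gene, centred 2044 bp after the start (55530377 to 55530484), and 1 centred 532 bp beyond the 3′ end. The closest EpiSC peak to Klf4 was 178 kb away, and 35.3% of protein-coding genes were at least as far from one. At Klf2 both states had peaks close to the gene, but not at the same place. The EpiSC peak (72316163 to 72316272, 110 bp) was centred 2844 bp upstream of the start, and the DE peaks were centred 138 bp upstream (the promoter sequence above, 158 bp), 6055 bp upstream (79 bp) and 41.6 kb upstream (181 bp). The EpiSC peak was 2573 bp from the nearest of them.

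Tbx3 (chromosome 5, 119670534 to 119684724) encodes a T-box factor that is also used in endoderm and many organs. Its 7 DE peaks included a pair just inside the lower end of the gene, at 119670614 to 119670803 and 119670886 to 119671029, 83 bp apart, where Tbx3os1 overlaps Tbx3. The others lay at Tbx3os1 and Gm16064 below the gene and near Tbx3os2 above it, as the sequence shown earlier. The closest EpiSC peak was 615 kb away, a distance reached or passed by 12.4% of protein-coding genes.

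Prdm14 (chromosome 1, 13113428 to 13127163), a PR-domain factor that represses FGF signalling, had the only naive site found in both lists. It was 201 bp wide in EpiSC (13074757 to 13074957) and lay inside a DE peak of 307 bp (13074734 to 13075040), 38.6 kb below the gene, with Gm29283 as nearest in the authors' deposited table. It formed a group with 4 further DE peaks from 13073511 to 13083742. On the other side, DE peaks of 329 bp (13132117 to 13132445) and 275 bp (13134387 to 13134661) lay 5118 and 7361 bp above the gene and named Prdm14 as nearest in the authors' deposited table. No EpiSC peak was closer than 57160 bp to the first of these.

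Tfcp2l1 (chromosome 1, 118627923 to 118685168), a CP2-family factor of the naive network, and Zfp42 (chromosome 8, 43295067 to 43307009), the gene of the naive marker REX1, were the members with fewest peaks. In the authors' deposited table neither was named as nearest by any peak. The only peak in the Tfcp2l1 window was a DE peak of 101 bp within Clasp1, 32.2 kb below the gene. For Zfp42 the closest DE peak was 59.3 kb from the gene, just outside the window, whereas the most distant peaks inside a window were at 48.1 kb (Nanog, DE) and 46.4 kb (Esrrb, DE). The distance from Zfp42 to its closest EpiSC peak, 1664 kb, was reached or passed by 3.83% of protein-coding genes.

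**Figure D4:**
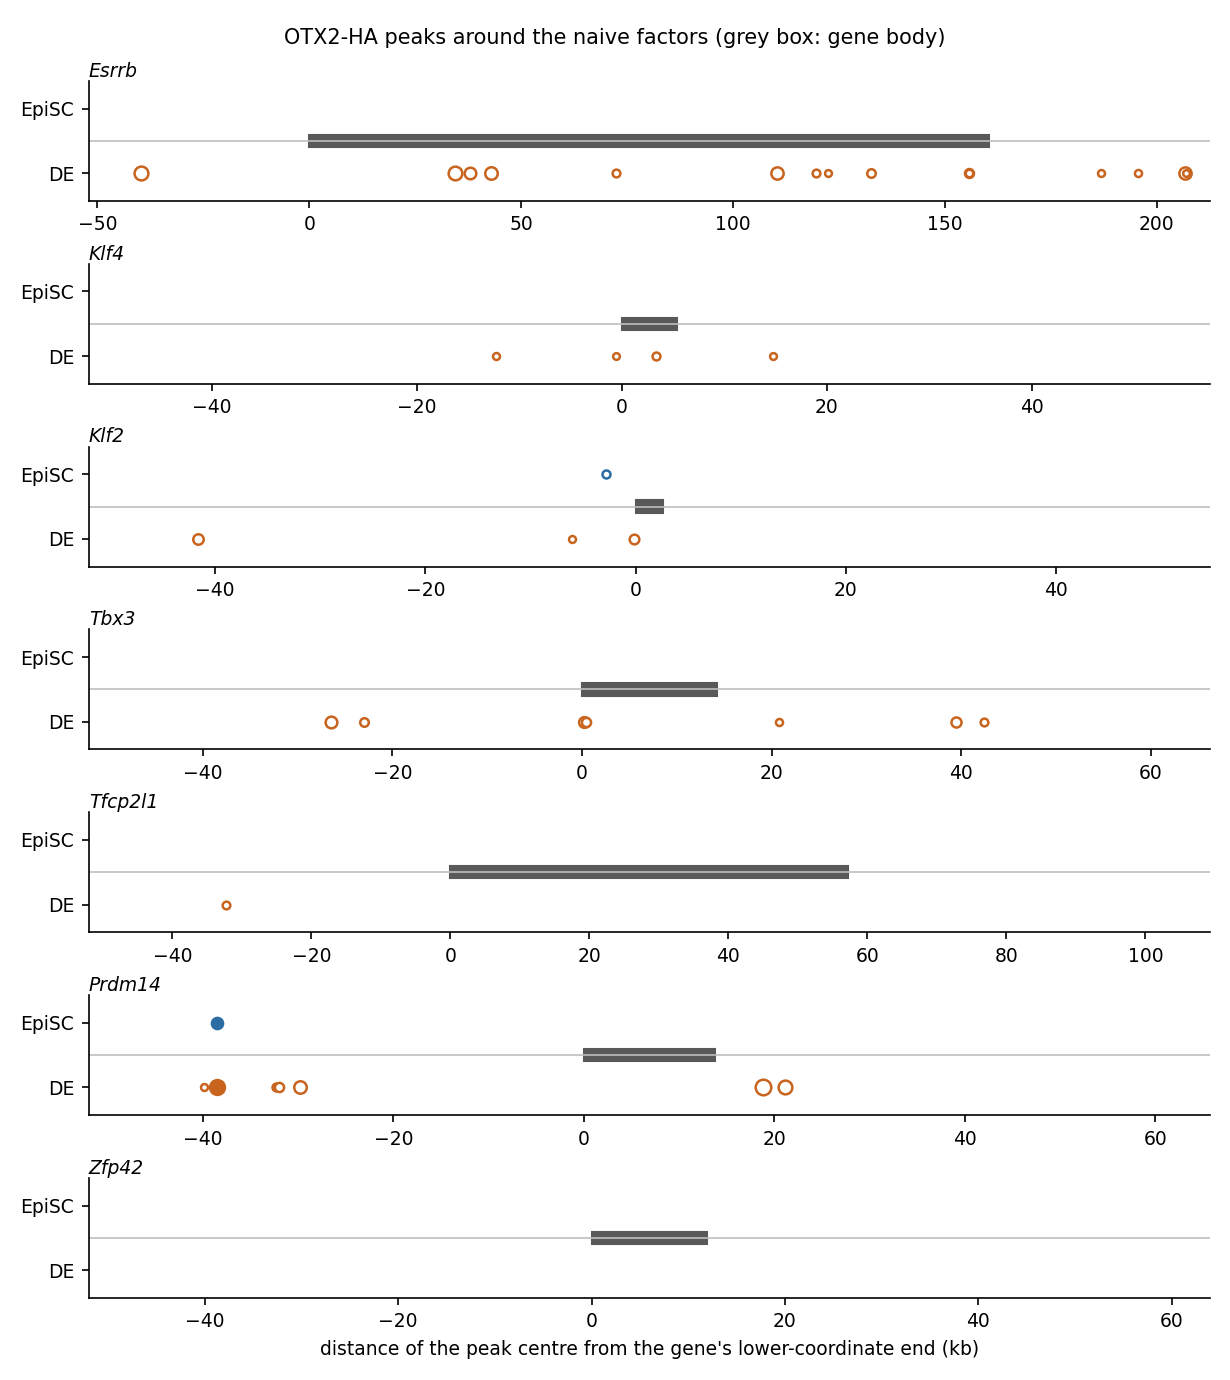
Peak centres around the 7 naive genes by distance from the lower-coordinate end of the gene (x axis, kb, with a separate scale for each gene), drawn as for the core genes. EpiSC circles appear only at Klf2 and Prdm14, and the single filled pair is at Prdm14. Esrrb shows 15 open DE circles, 10 of them inside the grey gene body.

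The overlap between the states was then compared by class. At core genes 9 of 15 EpiSC peaks overlapped a DE peak (60%, exact Clopper-Pearson 95% interval 32.3 to 83.7%), and at naive genes 1 of 2 did (50%, 1.26 to 98.7%), against 78.8% of all EpiSC peaks, a value that lies inside both intervals. In the other direction, 9 of 23 DE peaks at core genes overlapped an EpiSC peak (39.1%, 19.7 to 61.5%), against 1 of 37 at naive genes (2.7%, 0.0684 to 14.2%) and 11.7% of all DE peaks. The core interval did not include the share of the whole list and the naive interval did, but each rests on 1 gene. Sall4 held 5 of the 9 core sites, and without it 4 of 14 core DE peaks were shared (28.6%, 8.39 to 58.1%), an interval that includes the whole list's share. Without Prdm14, 0 of 30 naive DE peaks were shared, with an upper limit of 11.6%. The share of DE peaks that overlap is bounded by the number of EpiSC peaks, which was 2 at naive genes and 15 at core genes. It is therefore not separate from those counts.

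Width is the only measure the lists give for each peak, as they hold no score or height. Core peaks had medians of 151 bp in EpiSC (79 to 496 bp) and 144 bp in DE (85 to 581 bp). Naive peaks had widths of 110 and 201 bp in EpiSC and a median of 127 bp in DE (71 to 329 bp). These medians lie close to those of the whole lists, 141 bp in EpiSC and 138 bp in DE. Across the 10 matched sites the DE peak was the wider at 7 and the EpiSC peak at 3. When the DE list was limited to its 6319 widest peaks, of 259 bp or more, 5 DE peaks remained at core genes (2 each at Pou5f1 and Sall4 and 1 at Nanog) and 5 at naive genes (3 at Prdm14 and 2 at Esrrb). With these lists of equal length, EpiSC peaks made up 15 of 20 at core genes (75%, 95% interval 50.9 to 91.3%). At naive genes they made up 2 of 7 (28.6%, 3.67 to 71%). Their share of the lists as wholes is 50% because the lengths were made equal, and no share over the windows of all genes is given at this setting. In that setting 13.3% of core EpiSC peaks overlapped a DE peak, and 30.7% of all EpiSC peaks did. None of the widest DE peaks lay at Klf4, Klf2, Tbx3, Tfcp2l1 or Zfp42.

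**Figure D5:**
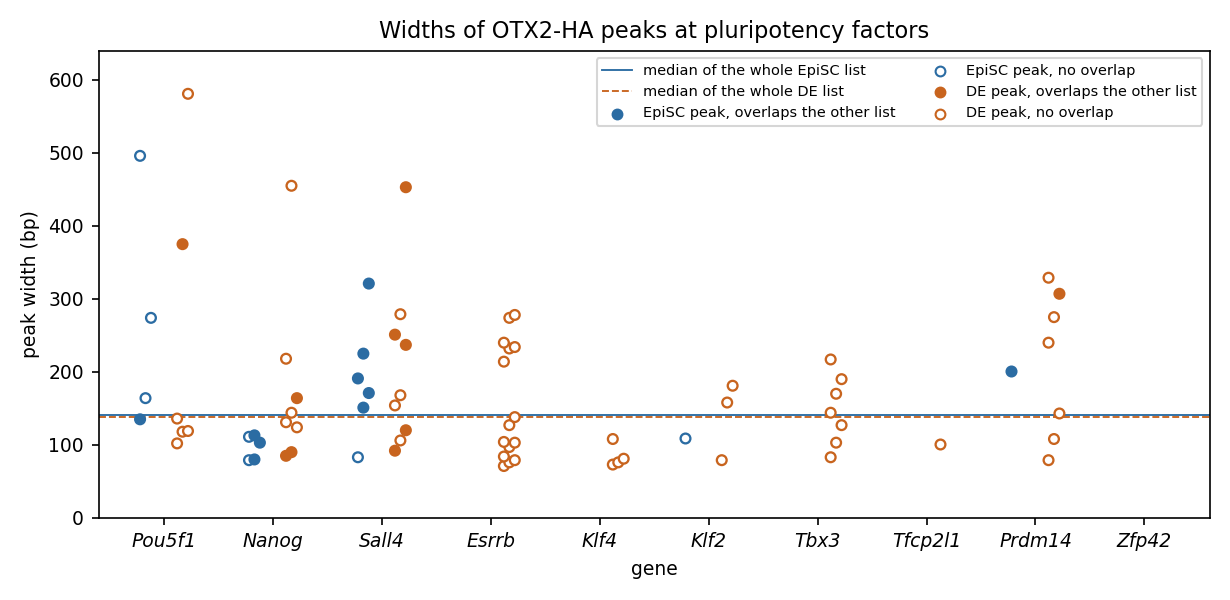
Width of every peak at the 10 genes (y axis, bp), EpiSC in blue and DE in orange, filled where it overlaps a peak of the other list. The lines mark the medians of the whole lists, 141 bp in EpiSC and 138 bp in DE. The widest points, 496 bp in EpiSC and 581 bp in DE, are both at Pou5f1 and both unfilled, and all 4 points at Klf4 lie under the line.

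None of the 77 peaks overlapped a control peak (0 of 77), that is, an IgG peak of tagged EpiSCs (149 to 202 per sample) or a peak of anti-HA in the untagged line (14). Over the whole lists, 50 of 6319 EpiSC and 35 of 42711 DE peaks did, so 0 of 77 was likely for any set of this size. The only control list from DE was the one of 14 peaks. The absence of overlap therefore says little about background at these genes. Assignment to a gene is less certain than position: for 46 of the 77 peaks the authors' deposited table names the member itself as nearest, and for the others it names a neighbour in the window. By the authors' deposited table alone, core genes had 8 EpiSC and 14 DE peaks and naive genes 1 and 23.

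Further pluripotency genes were placed beside the members. Among 12 genes of general pluripotency, 7 had an EpiSC peak and 12 a DE peak within 50 kb, with medians of 1.5 and 6 peaks. Among 14 genes of the naive network and of LIF and STAT3 signalling, 8 had an EpiSC peak and 13 a DE peak, with medians of 1 and 4.5. Over all protein-coding genes, 40.8% had an EpiSC peak and 82.8% a DE peak, with medians of 0 and 3. EpiSC peaks made up 23.8% of the peak counts added over the general list and 15.6% over the naive and LIF list. The share was 39.5% and 5.13% at the core and naive members and 18.2% over the windows of all protein-coding genes. The member shares count distinct peaks, whereas in the other values a peak in several gene windows counts in each.

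Most EpiSC peaks were found at Trim28, which encodes a co-repressor (6 EpiSC and 8 DE peaks), at Tdgf1, the gene of the Nodal co-receptor CRIPTO (4 and 6), and at Socs3, the gene of a STAT3 feedback inhibitor (3 and 10, level with Utf1 in EpiSC). Most DE peaks were found at Lifr, which encodes the LIF receptor (1 EpiSC and 10 DE peaks), at Socs3, and at Utf1, the gene of a chromatin-bound pluripotency factor (3 and 9). Of the EpiSC peaks, 13 of 20 at the general list and 11 of 12 at the naive and LIF list overlapped a DE peak, against 78.8% of all EpiSC peaks. Dppa3, which lies in the same gene cluster as Nanog, had no EpiSC peak and 4 DE peaks, and Sox2, the partner of OCT4, had 1 and 4. The Dppa3 peaks include the DE peak of 455 bp that was described in the Nanog window. The authors' deposited table names Trim28 as nearest for 1 of its 6 EpiSC peaks and Tdgf1 for 3 of its 4. Dppa3 and Sox2 were chosen after their values were seen.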

How the data were processed

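The files are peak lists of CUT&RUN for HA-tagged OTX2. The authors deposited 1 HA list per state, giving the start and end of each peak and, in a table with the same intervals (6319 of 6319 in EpiSC and 42711 of 42711 in DE), the nearest gene. How nearest genes were found is not given in the sources used here. Peaks were merged over 50 bp, per the file names. Bowtie2 2.3.5.1, SAMtools 1.14, Picard 2.26.10, bedtools 2.30, MACS2 2.2.6 and the build mm10 are named in the submitters' processing notes, without parameters. The description of EpiSC HA replicate 2 names the merged DE file and was taken as an error, since the same description names the EpiSC peak table. For IgG on tagged DE, the description lists files of the HA antibody, which was read as an error too, so the DE list was taken to stand for the HA samples alone.

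Starts were converted to 1-based positions. Genes came from NCBI RefSeq (GRCm38.p6), without the mitochondrial chromosome and genes of no known chromosome. The table gives no strand, so distances are to transcript starts where the upstream sequences gave one and to gene ends otherwise. Overlap meant at least 1 bp. Shares have exact Clopper-Pearson 95% intervals. Python 3.11.15, pandas 2.3.3, numpy 2.4.6 and scipy 1.17.1 were used, and the counting was tested on simulated lists. Marks for genes named down or up, and the score columns of the parental list, were not used.

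The members and lists were chosen with earlier results of these data known. The rule for named genes took all members, their shared, unshared, widest and gene-end peaks, and the 3 further genes with most peaks in each list. Alternatives were other windows (10, 25 and 100 kb), the authors' nearest gene, a common minimum width, equal list lengths, removal of control peaks and other overlap rules.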

Additional observations from a re-analysis of the deposited data

How the results depend on the processing

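No paired analysis was possible because each state has 1 list over both HA replicates, and for the same reason no replicate could be left out. Of 120 values from 10 alternatives, 93 were kept (a count within 1.5 times, or a share or median within its interval) and 27 moved. Of the 93, at least 24 could not have moved, since removing control peaks took away no member peak and the width settings left the EpiSC peaks as they were. Others were also bound to be kept, such as the number of core genes with a peak in the 100 kb window. The share of naive EpiSC peaks kept in DE has an interval of 1.26 to 98.7%, which almost any value meets. The number kept is therefore no measure of stability. Windows set most of the values that moved. At 10 kb the core genes had 9 EpiSC and 14 DE peaks and the naive genes 1 and 20. At 25 kb the naive genes had 1 EpiSC and 22 DE peaks. At 100 kb the DE counts were 46 at core and 61 at naive genes. By the authors' nearest gene the counts were 8 and 14 at core and 1 and 23 at naive genes. At 10 kb, at 25 kb and by the nearest gene, 1 naive gene had an EpiSC peak, and the shared part at naive genes was 0% of EpiSC and 0% of DE peaks, because the site near Prdm14 dropped out.

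When only the widest DE peaks were kept, in the number of the EpiSC list, 5 DE peaks lay at core and 5 at naive genes, 2 naive genes had a DE peak, and the median width of DE peaks at the members was 318 bp, as the choice selects on width. There, 13.3% of core EpiSC peaks overlapped a DE peak (2 of 15, against 30.7% of all EpiSC peaks), and 20% of naive DE peaks overlapped an EpiSC peak (1 of 5, against 30.2% of all kept DE peaks). EpiSC peaks made up from 28.1 to 75% of the peaks at core genes and from 4.17 to 28.6% at naive genes over the 10 alternatives, both highest with equal list lengths, and the core share was above the naive share in each. The 95% intervals of the classes overlapped at 10 kb (19.7 to 61.5% core, 0.12 to 23.8% naive), at 25 kb (21.8 to 57.8%, 0.11 to 21.9%), by the nearest gene (17.2 to 59.3%, 0.105 to 21.1%) and with equal list lengths (50.9 to 91.3%, 3.67 to 71%). An equal window around the gene midpoint, chosen after seeing the data, gave 41.7 and 6.67%. The control and overlap settings cannot change this share, so they say nothing about its stability. Unknown depth limits what an absent peak means: it was not called, which does not show that OTX2 was not bound.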
